A study of Homo sapiens with 8 samples.

Results

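The group consists of 107 of the 1818 mature microRNA (miRNA) names counted in the 8 libraries. Its names carry a number of 1200 or more and no -5p or -3p ending, and each had at least 20 reads summed over the libraries. Names matching the first 2 conditions numbered 293. Of these, 11 were set aside by name (miR-1248, miR-1268a, miR-1268b, miR-1291, miR-3182, miR-3609, miR-3651, miR-4286, miR-4497, miR-4532 and miR-7704) and 175 had fewer than 20 reads. The members were thus chosen by their summed reads, which are given as a description without a test.

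HCT116, an established line from a human colorectal carcinoma, was the source of every library, with its DICER supplied by a rescue that was either wild-type (WT) or carried the substitution R1855L, R821H or R1003Q. Each of the 4 groups has 2 libraries, made from total RNA with AQ-seq, a small-RNA method built to reduce ligation bias. All 4 groups share the cell line and the rescue; the sources used here do not give the parental genotype, the rescue vector or the level of DICER protein, and small-RNA libraries do not measure DICER mRNA. Whether the 2 libraries of a group stem from separate cultures is not stated in the labels, and p-values then reflect only how far these libraries differ, which may be technical.

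The RNase III enzyme DICER releases a short duplex from each precursor hairpin, and from it the 5p or the 3p strand is loaded into Argonaute to guide repression of messenger RNAs. The seed, near the 5′ end of the loaded strand, pairs with the target. miRNA numbers were assigned in order of registration, and a name without an ending is usually one for which the registry lists a mature product from only 1 side of the hairpin. Many names registered late came from deep sequencing and are low in abundance, and for some of them other RNA classes contain the same sequence.

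Mature sequences of 90 members were found in RefSeq (GRCh38.p14). The set printed here holds the most abundant members, the members that lay lowest in R1855L, and members at the extremes of base content, on which the comparisons turn. Capitals mark the seed, bases 2 to 8 counted from 1 at the 5′ end.
miR-4521: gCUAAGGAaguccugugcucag
miR-1260b: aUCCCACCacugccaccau
miR-1260a: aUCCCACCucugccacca
miR-7974: aGGCUGUGaugcucuccugagccc
miR-1246: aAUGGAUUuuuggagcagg
miR-1303: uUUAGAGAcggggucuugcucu
miR-3176: aCUGGCCUgggacuaccgg
miR-4440: uGUCGUGGggcuugcuggcuug
miR-3615: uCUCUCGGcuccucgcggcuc
miR-3133: uAAAGAACucuuaaaacccaau
miR-5690: uCAGCUACuaccucuauuagg
miR-4466: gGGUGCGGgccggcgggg
miR-4488: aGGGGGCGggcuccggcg

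Among these members only miR-1260a and miR-1260b shared a seed (UCCCACC). Their sequences differed by the substitution U9A, from miR-1260a to miR-1260b, and by length, 18 against 19 bases, so reads of one may have been counted for the other. Across the 90 members with a sequence the length ran from 17 to 26 bases with a median of 22, and the G and C content from 23.8% to 94.4% with a median of 57.5%. That median was 45.5% in the 583 names with a sequence that had a lower number and a strand ending, and 61.1% in the 229 late-numbered names with an ending. The base at the 5′ end was U in 32 members, A in 29, G in 20 and C in 9.

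A hairpin entry placed 42 members on the 5p side, 29 on the 3p side and 1 (miR-3179) on different sides at different loci. As a check of this placement, all 416 names with an ending that could be placed fell on the side that their ending states. By GENCODE release 29 (GRCh38), 42 members lay in introns, 17 in exons and 26 outside any gene on their strand, and for 5 the loci differed. miR-4521 lies at chr17:8186948-8186969 and miR-1260b at chr11:96341447-96341465, both outside genes on their strand, as are miR-1260a at chr14:77266231-77266248, miR-1246 at chr2:176601024-176601042 and miR-1303 at chr5:154685827-154685848. miR-7974 (chr19:11495544-11495567) is in an intron of the zinc-finger gene ZNF653, miR-3176 (chr16:543336-543354) in an intron of the calpain gene CAPN15, and miR-4440 (chr2:239068829-239068850) in an intron of HDAC4, a histone deacetylase. miR-3615 (chr17:74748663-74748683) overlaps an exon of SLC9A3R1, which encodes a membrane scaffold protein.

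Exact matches to another small or mitochondrial RNA gene were found for 3 of the 90 members with a sequence (3.33%). They were miR-1246 in U2 spliceosomal RNA genes, miR-4284 in the mitochondrial phenylalanine tRNA gene MT-TF, and miR-1973 in the mitochondrial ribosomal RNA gene MT-RNR2. The same share was 0.686% in the lower-numbered names with an ending and 1.31% in the late-numbered names with an ending. For these members the count cannot tell a product of the miRNA hairpin from a fragment of the other RNA. Nuclear tRNA genes were not among those searched, and members without a sequence could not be searched. Matches of further members may therefore have been missed.

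The members took 401894 reads, 2.85% of all reads. The median member had 89 reads over the 8 libraries; 57 had fewer than 100 reads and 13 had 1000 or more. In all 8 libraries 81 members were listed. Just above the minimum were miR-1258 with 20 reads, miR-4321 with 21, and miR-3128, miR-4706 and miR-5092 with 22. Just below it were miR-3170 and miR-4734 with 19, and miR-4420, miR-4648, miR-4767 and miR-4775 with 18.

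Library totals ran from 462805 to 4269231 reads, so that 3 reads, the limit that a count of 0 allows, correspond to 6.48 CPM (reads per library total, scaled to be comparable between libraries) in the shallowest and 0.703 CPM in the deepest library. The widest gap in the totals put replicate 2 of WT and replicate 1 of both R1855L and R821H among the deep libraries and the remaining 5 among the shallow ones. The depth class moved with many members, and its values are given beside the comparisons. The 8 colon epithelium markers summed to between 2947 and 3685 CPM, with miR-215-5p between 0 and 7.40 CPM. The 8 blood markers summed to between 633 and 1095 CPM, highest in R1855L replicate 2, with miR-155-5p at 0 in 7 libraries; their part in the results was not tested. The 3 muscle markers summed to between 3.28 and 11.8 CPM, the liver miRNA miR-122-5p ran from 60.7 to 114 CPM, and of the 2 neuronal markers miR-124-3p ran from 0 to 2.16 CPM and miR-9-5p from 532 to 1076 CPM.

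In WT the members' share of the reads was 3.17% (replicate 1) and 2.23% (replicate 2), and in R1855L 3.44% and 6.55%. R821H had 2.20% and 3.35%, and R1003Q 3.20% and 3.70%. The widest exact Clopper-Pearson 95% interval, that of R1855L replicate 2, ran from 6.48% to 6.62% and covers counting error only. Both R1855L shares lay above both WT shares, R821H overlapped WT, and the lower R1003Q share, 3.20%, was just above the higher WT share, 3.17%; these shares were not tested. The group means were 2.70% ± 0.666 in WT, 4.995% ± 2.20 in R1855L, 2.77% ± 0.817 in R821H and 3.45% ± 0.353 in R1003Q (SD, n = 2). In each of WT, R1855L and R821H the shallow library had the higher share. miR-4521 and miR-1260b together took between 71.1% and 80.1% of the members' reads in every library.

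**Figure D1:**
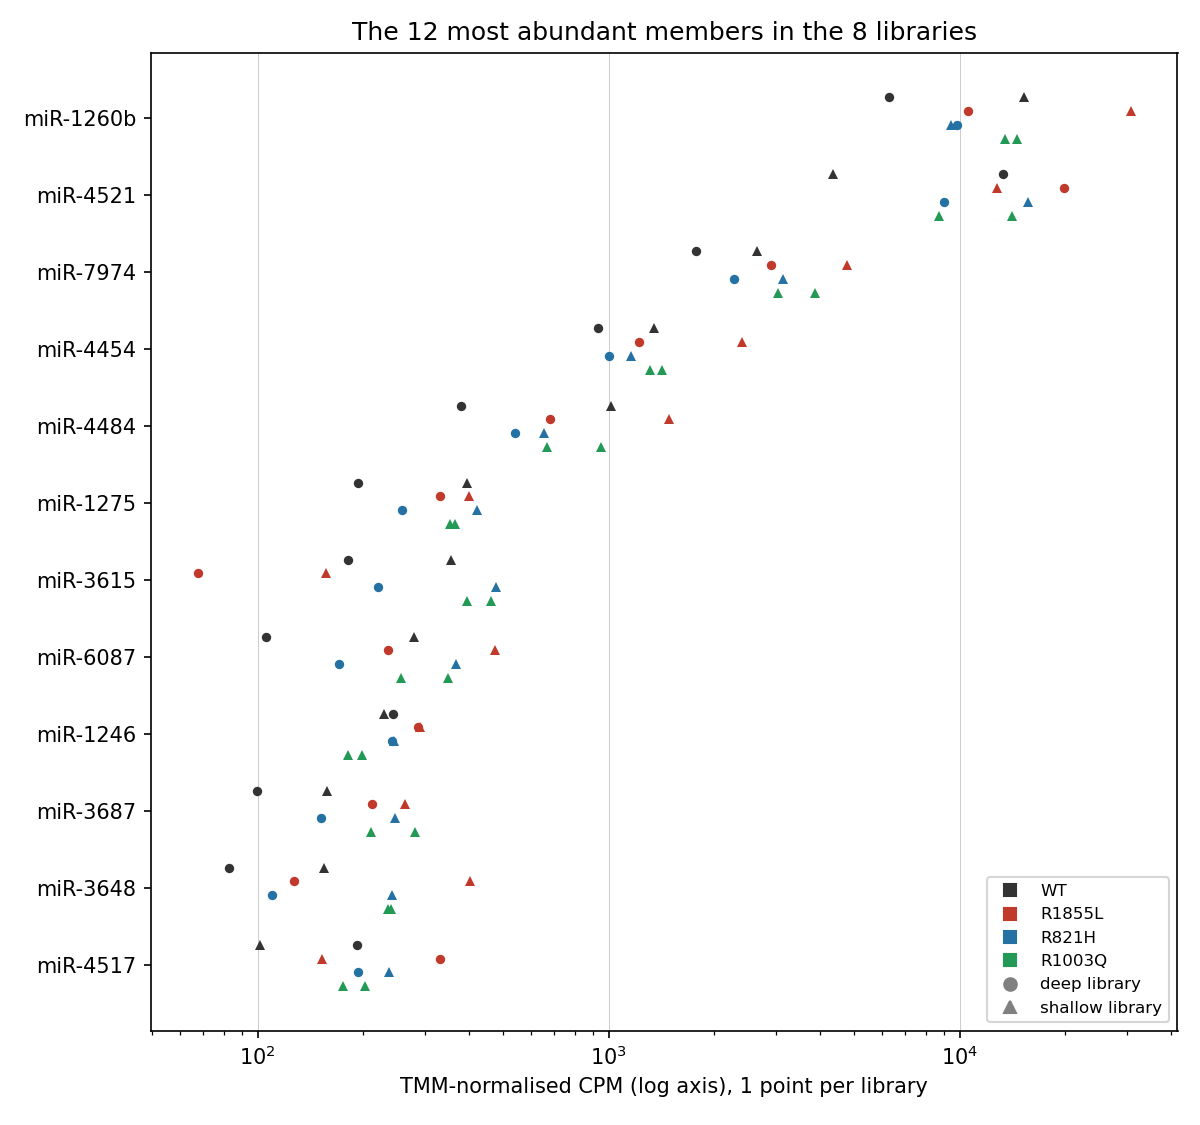
The 12 most abundant members, with TMM-normalised CPM on a log axis and 1 point per library, coloured by group; circles are deep and triangles shallow libraries. miR-1260b and miR-4521 stand above the others and R1855L is lowest for miR-3615.

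Levels below are CPM after TMM scaling, which adjusts for composition. miR-1260b was at 15264 and 6300 CPM in WT, 14534 and 13426 in R1003Q, 9838 and 9462 in R821H, and 10532 and 30754 in R1855L. miR-4521 was at 4360 and 13254 CPM in WT, 8753 and 14135 in R1003Q, 9004 and 15679 in R821H, and 19873 and 12805 in R1855L. Each mutant overlapped WT for both miRNAs, and the WT replicates of the 2 miRNAs went opposite ways: in WT, miR-1260b was 2.42-fold higher in replicate 1, and miR-4521 was 3.04-fold higher in replicate 2. Neither was called in any comparison with WT, with log2 fold changes in R1855L of 0.94 (standard error, SE, 0.56) for miR-1260b and 0.89 (SE 0.56) for miR-4521. Single libraries moved both values: that of miR-1260b was -0.080 without R1855L replicate 2, 0.34 without WT replicate 2, 1.71 without WT replicate 1 and 1.51 without R1855L replicate 1. That of miR-4521 was 0.32 without WT replicate 1, 0.54 without R1855L replicate 1 and 1.84 without WT replicate 2. Their order in a single library was therefore not fixed, with miR-1260b above miR-4521 in 4 of the 8 libraries.

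miR-7974 came next, at 2643 and 1775 CPM in WT, 3870 and 3035 in R1003Q, 2275 and 3131 in R821H, and 2897 and 4782 in R1855L. Both R1855L and both R1003Q libraries lay above both WT libraries, but neither difference passed the test (edgeR quasi-likelihood test, Benjamini-Hochberg adjusted p 0.282 and 0.857). miR-4454, whose sequence is 1 mismatch from that of miR-7975, and miR-4484 overlapped between WT and every mutant. miR-1246, the member identical to part of U2 RNA, varied little within groups, by at most 1.09-fold between replicates: 229 and 242 CPM in WT, 181 and 198 in R1003Q, 241 and 244 in R821H, and 287 and 291 in R1855L. Its R1855L libraries were the highest and its R1003Q libraries the lowest of all 8, by log2 differences from WT of 0.29 (SE 0.21) and -0.32 (SE 0.21), neither of which passed the test. miR-1275, miR-6087, miR-3687, miR-3648 and miR-4517 had group means of the same order as miR-1246, with WT means from 119 to 294 CPM.

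Tests were run over the 625 names with enough reads, of which 65 were members. The other 42 members had 20 to 95 reads each and 0.445% of the members' reads, and 22 of them were at 0 in some library. The filter keeps a name with enough reads in any 2 libraries, so counts and medians over the 65 describe the names that passed and not all members.

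The comparison of R1855L with WT asks how a substitution in the carboxy-terminal part of DICER, which holds its RNase III and double-stranded RNA-binding domains, altered the members. 1 of the 65 tested members, miR-1303, fell in R1855L and none rose (edgeR, adjusted p under 0.05). Over all tested names 5.76% were called, 0.32% higher and 5.44% lower, so the members' share of 1 in 65 was below the background. miR-1303 was at 47.9 and 45.5 CPM in WT and at 12.8 and 7.36 in R1855L, from 63 and 175 reads against 26 and 4. It was at 24.2 and 51.2 CPM in R821H and at 37.6 and 32.7 in R1003Q. The R1855L libraries were the lowest of all 8, and the mean was 10.1 ± 3.84 CPM against 46.7 ± 1.65 in WT (SD, n = 2). The log2 fold change was -2.10 (SE 0.46), with an edgeR adjusted p of 0.0422.

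That call was close to the threshold. The adjusted p became 0.111 without WT replicate 1, 0.106 without WT replicate 2, 0.0953 without R1855L replicate 1, 0.127 without R1855L replicate 2, 0.101 without R1003Q replicate 1 and 0.103 without R1003Q replicate 2, while the log2 fold change stayed between -2.65 and -1.88. Within the deep libraries alone R1855L over WT had a log2 ratio of -1.83, and within the shallow ones -2.70.

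**Figure D2:**
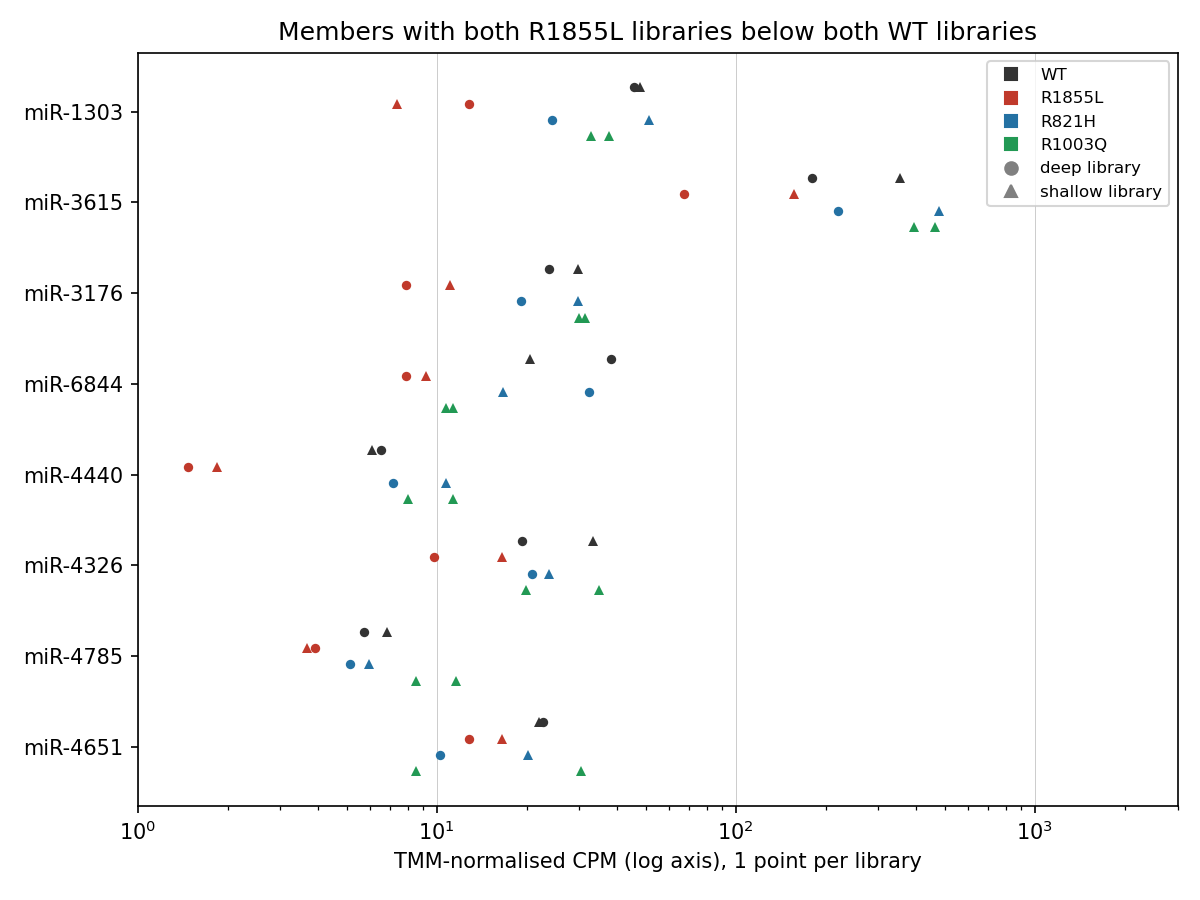
The 8 tested members with both R1855L libraries below both WT libraries, with TMM-normalised CPM on a log axis and 1 point per library; circles are deep and triangles shallow libraries. Except for miR-4651, the R1855L points also lie below all R821H and R1003Q points.

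Beside miR-1303, 7 members had both R1855L libraries below both WT libraries, and 18 had both above. Over all tested names these shares were 21.4% and 21.1%, so 8 lower members of 65 is a smaller share than the background and 18 higher a larger one. miR-3176 was at 29.6 and 23.7 CPM in WT, 31.3 and 29.9 in R1003Q, 19.1 and 29.8 in R821H, and 7.87 and 11.04 in R1855L. Its R1855L libraries were below all others, at a log2 fold change of -1.55 (SE 0.40) and an edgeR adjusted p of 0.0775. miR-4440 was at 6.08 and 6.50 CPM in WT, 8.05 and 11.4 in R1003Q, 7.16 and 10.7 in R821H, and 1.48 and 1.84 in R1855L. The R1855L values rest on 3 and 1 reads, and the log2 fold change was -1.96 (SE 0.61, adjusted p 0.140).

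miR-3615 was the most abundant of these members, at 355 and 180 CPM in WT, 463 and 395 in R1003Q, 220 and 479 in R821H, and 67.4 and 156 in R1855L. R1855L lay below all the others, with a log2 fold change of -1.29 (SE 0.55, adjusted p 0.270). In all 3 groups that hold both depth classes the deep library was the lower one for miR-3615, and within the deep and the shallow libraries R1855L over WT had a log2 ratio of -1.42 and -1.18. miR-6844 was at 20.5 and 38.2 CPM in WT and 7.87 and 9.20 in R1855L (log2 fold change -1.84, SE 0.50, adjusted p 0.0929), and at 32.4 and 16.7 in R821H and 10.7 and 11.4 in R1003Q. Its R1003Q libraries therefore also lay below WT. miR-4326, miR-4785 and miR-4651 were lower by log2 differences of 0.65 to 1.06, with adjusted p-values of 0.291 or more.

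Of the members on the higher side, the largest differences were those of miR-5091 (log2 fold change 1.28), miR-4284 (1.17), miR-4449 (1.12), miR-4443 (1.10) and miR-1260a (1.07, SE 0.45), with adjusted p-values from 0.270 to 0.525. miR-5091 had 4 and 14 reads in WT and 12 and 7 in R1855L. It passed the filter only through R1855L replicate 2 and R1003Q replicate 2, so the filter favoured this difference. miR-1260a was at 19.7 and 8.84 CPM in WT and 25.6 and 33.1 in R1855L. miR-4449, from an intron of the non-coding RNA gene DANCR, was at 26.6 and 15.3 CPM in WT and 34.4 and 57.0 in R1855L. miR-3687 and miR-7976 were also higher at an unadjusted p under 0.05, as was miR-1260a, which with the 5 lower members miR-1303, miR-3176, miR-6844, miR-4440 and miR-3615 made 8 of 65 (12.3%), against 18.4% of all tested names.

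The median log2 fold change of the 65 members in R1855L was 0.43, against 0.13 over all 625 names, with 45 members above 0 and 20 below. It was 0.07 without R1855L replicate 2, the shallowest library, and 0.21 without WT replicate 2, the deepest. The 119 tested late-numbered names with an ending had a median of 0.09 with 7 called, all lower. The 38 tested lower-numbered names without an ending had a median of -0.22 with 4 called, all lower, and the 11 names set aside had a median of 1.20 with 0 called by edgeR, 1 of them at an unadjusted p under 0.05. By side of the hairpin, the 23 tested members on the 5p side had a median of 0.39 in R1855L and the 18 on the 3p side 0.22. Over all tested names these medians were 0.20 for 248 names on the 5p side and -0.12 for 235 on the 3p side. Of the 3p-side members, 4 had both R1855L libraries below both WT libraries and 3 had both above, against 1 and 8 on the 5p side. Over all tested names 32.8% of the 3p side were lower in this way and 17.9% higher, against 15.7% and 23.0% of the 5p side, so the sides differed in the same direction in the background.

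**Figure D3:**
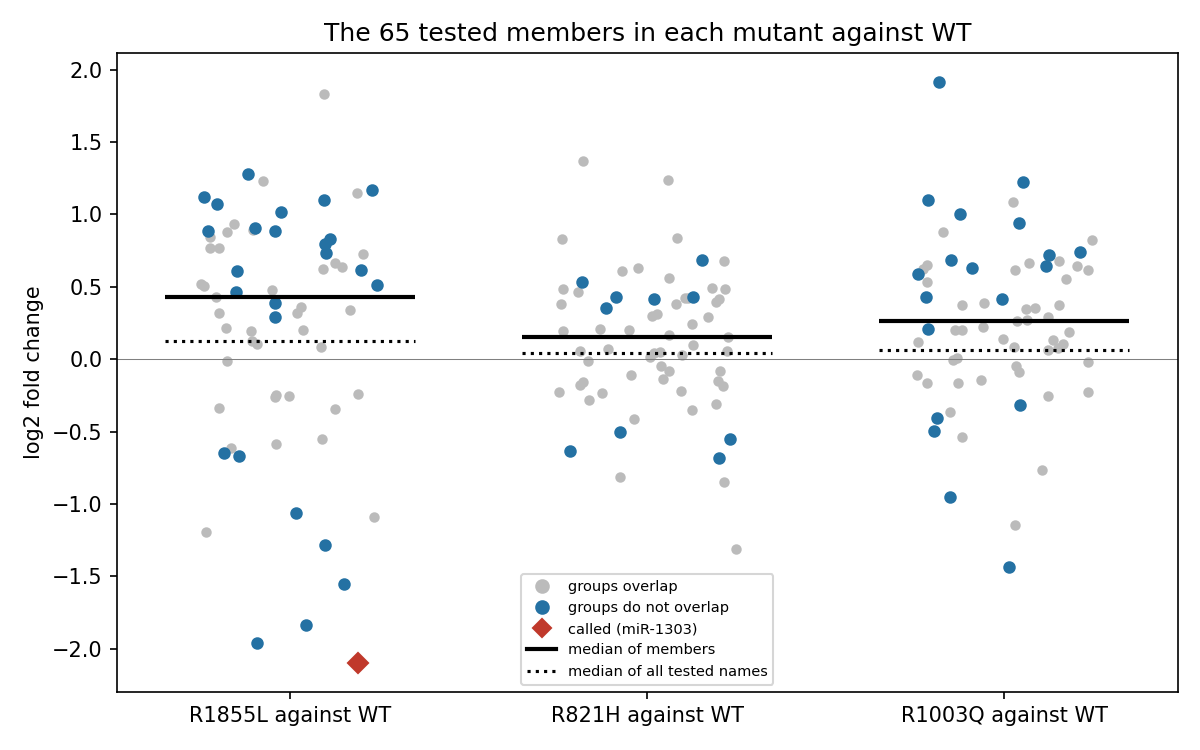
The log2 fold changes of the 65 tested members in each mutant against WT, 1 point per member; blue points are members whose mutant libraries do not overlap those of WT, the red diamond is miR-1303, solid lines are the members' medians and dotted lines the medians of all 625 names. The members' medians are 0.43, 0.15 and 0.26, and the lower tail is longest in R1855L.

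R821H changes an arginine in the central part of DICER. No member was called in R821H against WT (edgeR, 0 of 65, with 0 at an unadjusted p under 0.05, and 0 by DESeq2), and over all tested names 0% were called. The log2 fold changes ran from -1.31 to 1.37 with a median of 0.15, against 0.04 for all names. Both R821H libraries lay above both WT libraries for 6 members and below them for 4, against 15.4% and 13.1% of all tested names. The largest of these differences were those of miR-1273c (0.69, SE 0.79) and miR-3943 (-0.68, SE 0.45). miR-1273c passed the filter only through replicate 2 of R1855L, R821H and R1003Q, so the filter favoured its difference. miR-3943, from an intron of the ubiquitin ligase gene HECW1, was at 16.0 and 20.8 CPM in WT and 13.0 and 9.53 in R821H. miR-4517, from an exon of NFATC2IP, was at 102 and 192 CPM in WT and 193 and 236 in R821H, so that the nearest libraries of the groups were almost equal (log2 fold change 0.54, SE 0.43).

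Members of R821H with the next largest differences among those that did not overlap WT were miR-4440 (0.43), miR-4658 (0.43) and miR-7705 (0.42) on the higher side, and miR-4651 (-0.63), miR-3611 (-0.55) and miR-1294 (-0.50) on the lower side. The higher ones passed the filter only through mutant libraries, R821H replicate 2 among them, so the filter favoured these differences. For miR-4440 these were R821H replicate 2 and R1003Q replicate 2. miR-4440, at 7.16 and 10.7 CPM, was thus on opposite sides of WT in R821H and in R1855L; these comparisons share the WT libraries, and the difference between the mutants was not tested. The sign of the members' median in R821H rested on single libraries: it was -0.16 without WT replicate 2 and -0.11 without R821H replicate 2. Scaling by total counts alone shifted the median of all names in R821H by -0.12 and that of the members to 0.03, with 8 of the 65 members changing sign.

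R1003Q also changes an arginine of the central part of DICER, and again no member was called against WT (edgeR, 0 of 65, with 3 at an unadjusted p under 0.05, and 0 by DESeq2), with 0% of all tested names called. The 3 members were miR-1286 (log2 fold change 1.91, SE 0.74), miR-3687 (0.94, SE 0.36) and miR-6844 (-1.43, SE 0.49), each with an adjusted p of 0.857. miR-1286, from an intron of the Nogo receptor gene RTN4R, was at 3.80 and 2.08 CPM in WT and 10.7 and 9.95 in R1003Q. Its groups did not overlap there, but R1855L replicate 2, at 9.20 CPM, reached nearly the same level. Its WT values rest on 5 and 8 reads and its R1003Q values on 12 and 7. miR-1286 passed the filter only through both R1003Q libraries and R1855L replicate 2, so the filter favoured this difference. miR-3687 was at 158 and 99.4 CPM in WT and 281 and 210 in R1003Q, and also lay above WT in both R1855L libraries, at 211 and 263 CPM.

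Both R1003Q libraries lay above both WT libraries for 14 members and below them for 5, against 22.9% and 17.8% of all tested names, so that the 14 members are a share near the background and the 5 a smaller one. On the higher side miR-4449 (1.23), miR-4443 (1.10) and miR-3648 (1.01) followed miR-1286. On the lower side were miR-6844, miR-3662 (-0.95), miR-2110 (-0.50), miR-1303 (-0.40) and miR-1246 (-0.32). The median of the members was 0.26, against 0.06 for all names. Both R1003Q libraries are shallow, whereas WT holds a deep and a shallow library: with the depth class as a term the members' median was 0.08 and again no member was called by edgeR (6 at an unadjusted p under 0.05).

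In the test of any difference among the 4 groups no member was called (edgeR, 0 of 65, against 2.88% of all tested names), with 5 at an unadjusted p under 0.05, against 12.3% of all tested names: miR-1303, miR-3176, miR-6844, miR-4440 and miR-3615. Of these, miR-4440 passed the filter only through R821H replicate 2 and R1003Q replicate 2, so the filter favoured its difference. DESeq2 called 1, miR-1303 (adjusted p 0.0466). The libraries of a group differed widely for most members: the median fold between replicates over tested members was 1.70 in WT, 1.79 in R1855L, 1.72 in R821H and 1.31 in R1003Q. Of the untested members, miR-3138 had 6 and 24 reads in WT, 10 and 5 in R821H, 1 and 0 in R1855L, and 0 and 0 in R1003Q; it was called among the 4 groups when no filter was applied (edgeR, adjusted p 0.0172). Its level in WT was 4.56 and 6.24 CPM, near the limit that a count of 0 allows in the shallow libraries.

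More members were called between deep and shallow libraries than for any substitution. The substitution counts above came from a model without the depth class. In the model with group and depth class, 17 of 65 were called in R1855L against WT. With group in the model, 29 of the 65 tested members differed between deep and shallow libraries (edgeR, adjusted p under 0.05), of which 8 were higher in the deep libraries and 21 were lower. Over all tested names 36.5% differed, 17.8% higher and 18.7% lower, so the members' calls lay more on the lower side. The tested late-numbered names with an ending leaned the same way, with 6 of 119 higher and 30 lower. Of the 11 names set aside 9 were called, all lower, so this lean was not particular to the members. The members' median difference was -0.49 on the log2 scale, against -0.03 for all names. R1003Q holds no deep library and adds nothing to this difference; 17 members were called without WT replicate 1 and 17 without WT replicate 2.

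Higher in the deep libraries were miR-1272 (log2 difference 2.01), miR-5690 (1.44), miR-3662 (1.43), miR-3133 (1.39) and miR-1255a (1.38), followed by miR-3929, miR-6844 and miR-1257. miR-1272 had 0, 2 and 6 reads in the shallow libraries of WT, R1855L and R821H. It passed the filter only through the deep libraries of R1855L and R821H and R1003Q replicate 2, so the filter favoured its difference. miR-3133, from an intron of FARP2 on chr2, was at 49.4, 69.3 and 52.5 CPM in the deep libraries of WT, R1855L and R821H and at 19.0, 14.7 and 28.6 in their shallow ones. miR-1255a, from an intron of the calcineurin gene PPP3CA, was at 49.2, 79.7 and 48.4 CPM in the deep and 22.0, 18.4 and 22.6 in the shallow libraries of the same groups. Deep and shallow libraries did not overlap for either, and the R1003Q libraries, at 18.8 and 22.7 CPM for miR-3133 and 9.83 and 24.2 for miR-1255a, lay with the shallow ones.

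Lowest in the deep libraries were miR-4417 (-3.48), miR-4472 (-3.28), miR-5100 (-2.60), miR-4488 (-2.35) and miR-4466 (-2.29). All of these passed the filter only through shallow libraries, so the filter favoured differences in this direction. miR-4417 had 32 reads in all, miR-5100 had 53, and miR-4472 and miR-4488 had 57 each. miR-4466 was at 3.90, 4.43 and 7.16 CPM in the deep libraries and at 24.3, 20.2 and 29.8 in the shallow libraries of WT, R1855L and R821H, and at 20.6 and 25.6 in R1003Q. The lowest shallow library was thus above the highest deep one. Of the 12 most abundant members, 8 were called lower in the deep libraries (miR-3648, miR-6087, miR-3615, miR-4484, miR-1275, miR-7974, miR-4454 and miR-3687), and miR-1260b, miR-4521, miR-1246 and miR-4517 were not called by edgeR. DESeq2 called miR-1260b lower (log2 difference -0.95, adjusted p 7.0e-04), and edgeR without a filter called miR-4517 higher (0.73, adjusted p 4.8e-04).

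**Figure D4:**
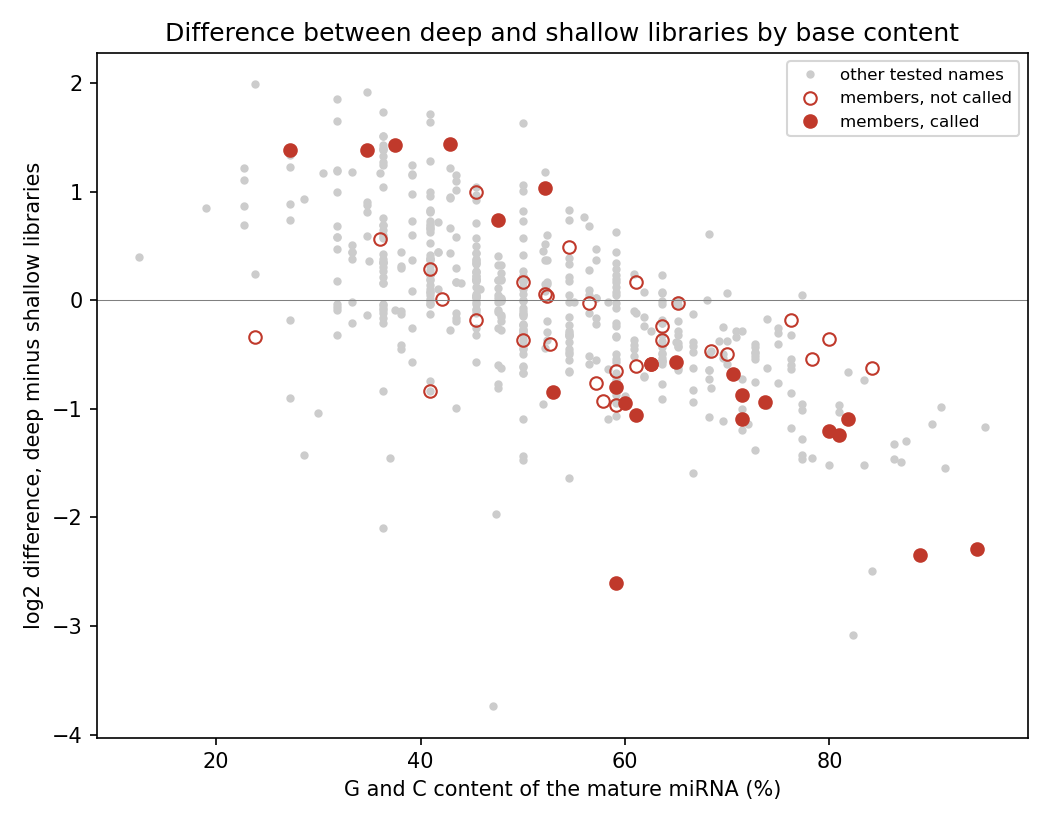
The log2 difference between deep and shallow libraries against the G and C content of the mature miRNA, for 52 tested members (red; filled where called) and the other tested names with a sequence (grey). Called members lie above 0 at low G and C content and below 0 at high content.

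These differences followed the base content of the members, visible in the printed sequences of miR-3133 and miR-5690 beside those of miR-4466 and miR-4488. The 6 called higher in the deep libraries that have a sequence held 27.3% to 52.2% G and C, and the 16 called lower held 52.9% to 94.4%. Of the 12 tested members under 50% G and C, 5 were called higher and 0 lower (edgeR). Of the 23 from 50% to under 65%, 1 was called higher and 6 lower, and of the 17 at 65% or more, 0 higher and 10 lower. Over all tested names the same bands held 87 higher and 12 lower of 247, 11 and 41 of 189, and 0 and 47 of 106. Across 52 members the correlation of G and C content with the log2 difference was r = -0.67 (Spearman's rho -0.66), and across all 542 tested names with a sequence r = -0.63 (rho -0.66). All these names come from the same 8 libraries, so the correlations describe those libraries. The relation was not particular to the members, and what in the libraries moves with their depth was not tested. Across the same 52 members, G and C content had r = 0.54 with the log2 fold change in R1003Q, r = -0.15 in R1855L and r = -0.11 in R821H. Across all 542 names r was 0.48 in R1003Q, -0.08 in R1855L and 0.06 in R821H, so the R1003Q relation was not particular to the members. Both R1003Q libraries are shallow, and the part of depth in that relation was not tested.

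With the depth class as a term in the model, 17 of the 65 tested members were called in R1855L against WT, 12 higher and 5 lower (edgeR). The background was then 28.3% of all tested names, 11.7% higher and 16.6% lower, so the members' calls lay more on the higher side. Lower were miR-6844 (log2 fold change -2.001), miR-1303 (-1.97), miR-3176 (-1.52), miR-3615 (-1.31) and miR-4326 (-1.001). Higher were miR-1260a (1.19), miR-4443 (1.17), miR-4449 (1.15), miR-3648 (0.99), miR-6087 (0.96), miR-3687 (0.93), miR-7976 (0.83), miR-7974 (0.78), miR-4517 (0.72), miR-7641 (0.71), miR-4484 (0.68) and miR-4454 (0.62). In R821H no member was called with this term by edgeR (5 at an unadjusted p under 0.05), against 2.56% of all tested names, 0.8% higher and 1.76% lower; in R1003Q, also without a called member, the background was 0.32%. Of the 62 tested members with reads in all 4 libraries of R1855L and WT, 32 (51.6%) were above WT within both depth classes, 11 (17.7%) were below within both, and 19 went opposite ways. Over the 611 tested names with such reads these shares were 41.9% above and 32.2% below. R1855L was shallower than WT in both depth classes, at 2241881 against 4269231 reads in the deep and 462805 against 1137858 in the shallow class. The depth term and these ratios therefore leave a difference in depth between the groups. Its part in the calls and in these shares was not tested.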

How the data were processed

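Small RNA was counted in 8 HCT116 libraries, 2 for each of 4 DICER rescues, with groups and replicate numbers read from the sample titles. The deposited values are estimated counts, 1 per mature miRNA name and library, not normalised and not pooled; the submitters' processing notes name cutadapt, BWA, bedtools, hg38 and mm10, without versions or roles. The miRNA annotation release is not given in the sources used here. A name not listed in a library was taken as 0, and counts were rounded to whole numbers. Reads shared between near-identical names or with other RNA classes may have been split, and no molecular identifiers are named for them.

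All 625 names passing filterByExpr were fitted in 1 robust edgeR 4.0.16 quasi-likelihood model (R 4.3.3) with TMM scaling over all 8 libraries. Calls used an adjusted p under 0.05 (Benjamini-Hochberg over those names), and SE is the absolute log2 fold change over the square root of F. In simulations of 625 names, 72%, 85% and 79% of 4-fold and 19%, 29% and 17% of 2-fold changes were recovered for R1855L, R821H and R1003Q. Among members these were 7 of 11, 9 of 11 and 5 of 9 of 4-fold changes, and 1 of 14, 6 of 16 and 2 of 12 of 2-fold changes. The simulated counts held no shift with depth or base content. Sequences came from RefSeq (GRCh38.p14) and genes from GENCODE release 29, the hairpin side being that of the mature sequence relative to the hairpin's middle. Alternatives were DESeq2 1.42.0, other size factors, no filter or a mean of 10 CPM, a fit of the 4 libraries compared alone, a replicate block, a depth term and leaving out each library. Figures used matplotlib 3.10.9 in Python 3.11.15.

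The members and lists were chosen with earlier results of these data known. Named members were the 12 most abundant, those called (of the depth calls, the 5 largest and 5 smallest), per mutant the 5 largest and 5 smallest differences with groups that do not overlap, those sharing a seed, and those nearest the read minimum. Others, such as miR-3138, miR-3181, miR-1262, miR-4321, miR-4448, miR-1973, miR-4326, miR-4785, miR-7976 and further depth-term calls, were singled out after their values were seen.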

Additional observations from a re-analysis of the deposited data

How the results depend on the processing

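The count of 1 called member in R1855L became 0 with total counts alone, 0 with only the 4 libraries compared and 0 with the replicate block, 3 of 107 with no filter (miR-1303, miR-3615 and miR-6844; 2.92% of all names) and 17 with the depth class as a term. With each library left out in turn it was 0 to 1. Without R1855L replicate 2 the member called was miR-3181 and not miR-1303. Its log2 fold change of -6.97 then rested on R1855L replicate 1 alone, which had 0 reads. With both libraries it was at 0 and 12.9 CPM in R1855L against 9.87 and 7.28 in WT, at a log2 fold change of -1.09 (SE 1.29). All names called in R1855L, 36, became 14 with total counts, 2 with only the 4 libraries compared, 19 with the replicate block, 177 with the depth term, and 8 (without R1855L replicate 1) to 26 with 1 library left out. Deviations of same-numbered libraries correlated at -0.70 between WT and R1855L, -0.68 between WT and R821H and 0.57 between R1855L and R821H. With R1003Q they correlated at 0.09 for WT, 0.02 for R1855L and -0.12 for R821H. Replicate 1 is shallow in WT and deep in R1855L and R821H, so these values cannot tell pairing from depth class. Crossing the WT numbers in the block was chosen after seeing the data, and it lines the block up with the depth class in WT, R1855L and R821H. It gave 3 members and 57 names in R1855L, 1 member for any difference, and a members' median of 0.38 in R1003Q.

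The members' median in R1855L, 0.43, was 0.23 with no filter and 0.067 to 0.50 with 1 library left out. In R821H, 0.15, it was -0.16 without WT replicate 2, -0.11 without R821H replicate 2, and at most 0.30. In R1003Q, 0.26, it was 0.19 with DESeq2, 0.21 with median-ratio size factors, 0.21 with total counts, 0.090 with no filter, 0.16 with a mean of at least 10 CPM, 0.20 with only the 4 libraries compared, 0.075 with the depth term, and 0.039 to 0.46 with 1 library left out. All names called in R821H, 0, became 1 with DESeq2 and 16 with the depth term, and in R1003Q 2 with the depth term. Members differing among the 4 groups, 0 by edgeR, were 1 with DESeq2, 4 of 107 with no filter and 12 of 65 with the depth term, where 6.88%, 2.86% and 24% of all names were called. Members differing with depth, 29, were 17 to 29 with 1 library left out. Of the settings that change only the scaling, total counts alone removed the call of miR-1303 (adjusted p 0.0670). The cause of these changes was not tested, except that only the 4 libraries compared and each library left out use fewer samples. Depth limits the 42 untested members most: with no filter, miR-3138 was called among the 4 groups and miR-1262, miR-4321 and miR-4448 between deep and shallow libraries.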
